A study of Mus musculus with 16 samples.

Results

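The unfolded protein response and protein folding in the endoplasmic reticulum (ER) were followed through 33 genes, out of 23279 genes measured. They were chosen by name for their textbook roles, with earlier results of these data already known. All 33 had a value on the array. The gene that marks the set is Fkbp11, an ER-resident peptidyl-prolyl isomerase of secretory cells. RNA came from liver of male mice aged 16 months. Tumours and adjacent liver came from mice bred to carry Axin1 fl/fl alleles with Alfp-Cre, a Cre recombinase expressed in embryonic hepatocytes, so cells outside that lineage keep Axin1; controls were non-deleted mice of the same age and sex, whose alleles the labels do not spell out. There were 3 control livers (mice 10, 11 and 12), adjacent non-tumoral liver of 5 Axin1-deleted mice (81, 121, 123, 124 and 1931) and 8 tumours of 6 Axin1-deleted mice (81, 90, 93, 121, 123 and 124). Mouse 121 gave 3 tumours, 1 without a number and those numbered 2 and 3, and their mean counts as 1 of the 6 tumour mice.

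Secretory cells such as hepatocytes fold a large flow of proteins in the ER, helped by chaperones, disulfide isomerases and prolyl isomerases. When unfolded protein builds up, 3 sensors in the ER membrane respond: IRE1 splices the mRNA of XBP1, ATF6 is cleaved to a transcription factor, and PERK slows translation while ATF4 and then CHOP are made. XBP1 and ATF6 raise chaperones and the machinery that degrades misfolded protein, whereas ATF4, which amino acid shortage also induces, raises amino acid enzymes and stress regulators. The arrays read the RNA level of each gene; splicing, cleavage and phosphorylation of these proteins are not measured by them.

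Values are log2 expression values, in which a difference of 1 is a 2-fold change. Hepatocyte markers averaged 10.8 to 11.4 on every array, so the labelled tissue was borne out. Axin1 ranged from 5.07 to 5.48 in controls, from 3.90 to 4.39 in adjacent liver and from 3.95 to 4.81 in tumours, and no array of a deleted mouse reached the controls. Tumour 93 stood apart from the other tumours, with only 0.62% of all genes 1 or more above the adjacent mean, and control 10 had the highest macrophage and neutrophil markers of all arrays. In the comparison of tumours with adjacent liver, leaving out tumour 93 raised the number of genes past an adjusted p of 0.05 (limma, Benjamini-Hochberg over all genes) from 36 to 743.

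The stretch before the transcription start of some of these genes holds the ER stress element, a DNA sequence through which ATF6 and XBP1 act. Its sites are shown as letter matches, and binding to them was not measured. Promoters from 250 bases before to 50 bases after each start were taken from RefSeq (GRCm38.p6), which gave 34 promoters for 30 of the 33 genes; Atf6, Hyou1 and Manf had no entry. The letters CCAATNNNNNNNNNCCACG, searched on both strands, stood in 9 of the 34 promoters (26.5%) and in 39 of 32851 promoters of all genes (0.119%). Positions count from the start, with -1 the last base before it. The sites are printed in the direction of the motif, with the fixed letters in capitals.
Hspa5, same strand as the gene, from -65 to -47: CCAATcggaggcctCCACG
Calr, opposite strand, from -162 to -144: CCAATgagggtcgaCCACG
Derl3, opposite strand, from -156 to -138: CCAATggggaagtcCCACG
Hsp90b1, same strand as the gene, from -212 to -194: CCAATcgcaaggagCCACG
Hsp90b1, opposite strand, from -107 to -89: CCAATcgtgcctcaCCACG
Canx, same strand as the gene, from -145 to -127: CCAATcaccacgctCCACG
Pdia6, same strand as the gene, from -98 to -80: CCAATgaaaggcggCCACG
Dnajc3, same strand as the gene, from -105 to -87: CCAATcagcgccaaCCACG
Creld2, opposite strand, from -126 to -108: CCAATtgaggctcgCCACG
Syvn1, same strand as the gene, from -44 to -26: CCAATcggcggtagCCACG
A shorter arrangement of the same pieces, ATTGGNCCACG, called ER stress element II, was searched after the other motifs had been seen. It stood in 2 of the 34 promoters and in 12 of all 32851.
Herpud1, same strand as the gene, from -52 to -42: ATTGGgCCACG
Dnajb11, same strand as the gene, from 8 to 18: ATTGGcCCACG
Sites thus stood in the promoters of 4 of the 7 chaperones and co-chaperones (Hspa5, Hsp90b1, Dnajb11 and Dnajc3), both lectin chaperones, Pdia6, Creld2, Derl3, Syvn1 and Herpud1. No promoter of Xbp1, Atf4, Ddit3 or Fkbp11 held these letters in this window. The core of the amino acid response element that ATF4 and CHOP bind, TGATGNAAN on either strand, stood in the promoters of Chac1, Trib3, Asns and Herpud1, which is 11.8% of the 34 against 3.95% of all promoters; in Herpud1 it did not overlap the ER stress element II. The letters TGACGTGG, a core bound by XBP1 and ATF6, stood in 0 of the 34 promoters and in 0.676% of all. A match describes letters only, and the members had been chosen as stress genes.

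The 250 bases before the start are shown for 3 genes with an element, Hspa5, Creld2 and Derl3, taken as examples of a chaperone, a secreted stress protein and a degradation gene, and for both promoters of Fkbp11, which hold none. Bases run 5′ to 3′ on the gene's strand, and capitals mark the ER stress element as it lies on that strand.
Hspa5, chr2:34771840-34772089, plus strand: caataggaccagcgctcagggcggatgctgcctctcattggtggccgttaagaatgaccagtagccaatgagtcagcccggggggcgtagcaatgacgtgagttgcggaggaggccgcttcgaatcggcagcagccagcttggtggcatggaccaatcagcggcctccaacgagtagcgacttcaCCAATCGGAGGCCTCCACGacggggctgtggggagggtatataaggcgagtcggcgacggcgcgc
Creld2, chr15:88819396-88819645, plus strand: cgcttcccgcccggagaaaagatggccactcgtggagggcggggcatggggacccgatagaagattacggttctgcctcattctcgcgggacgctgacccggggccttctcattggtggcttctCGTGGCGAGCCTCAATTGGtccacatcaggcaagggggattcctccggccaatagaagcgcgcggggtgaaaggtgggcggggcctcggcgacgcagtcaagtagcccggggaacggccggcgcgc
Derl3, chr10:75893148-75893397, plus strand: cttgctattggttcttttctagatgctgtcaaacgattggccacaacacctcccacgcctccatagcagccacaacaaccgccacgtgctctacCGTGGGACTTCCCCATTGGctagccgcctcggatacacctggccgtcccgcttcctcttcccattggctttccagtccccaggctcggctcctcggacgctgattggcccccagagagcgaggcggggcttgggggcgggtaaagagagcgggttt
Fkbp11, chr15:98728199-98728448, minus strand: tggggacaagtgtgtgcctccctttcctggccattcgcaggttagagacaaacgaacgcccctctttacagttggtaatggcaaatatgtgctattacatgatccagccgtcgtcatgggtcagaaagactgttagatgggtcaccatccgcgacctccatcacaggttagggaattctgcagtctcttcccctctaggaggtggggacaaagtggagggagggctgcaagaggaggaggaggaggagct
Fkbp11, chr15:98727628-98727877, minus strand: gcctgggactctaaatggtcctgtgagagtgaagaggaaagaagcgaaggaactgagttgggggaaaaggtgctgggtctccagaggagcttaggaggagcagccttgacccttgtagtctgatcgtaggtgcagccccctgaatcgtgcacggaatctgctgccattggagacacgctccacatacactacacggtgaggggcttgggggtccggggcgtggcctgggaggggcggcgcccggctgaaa

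**Figure D1:**
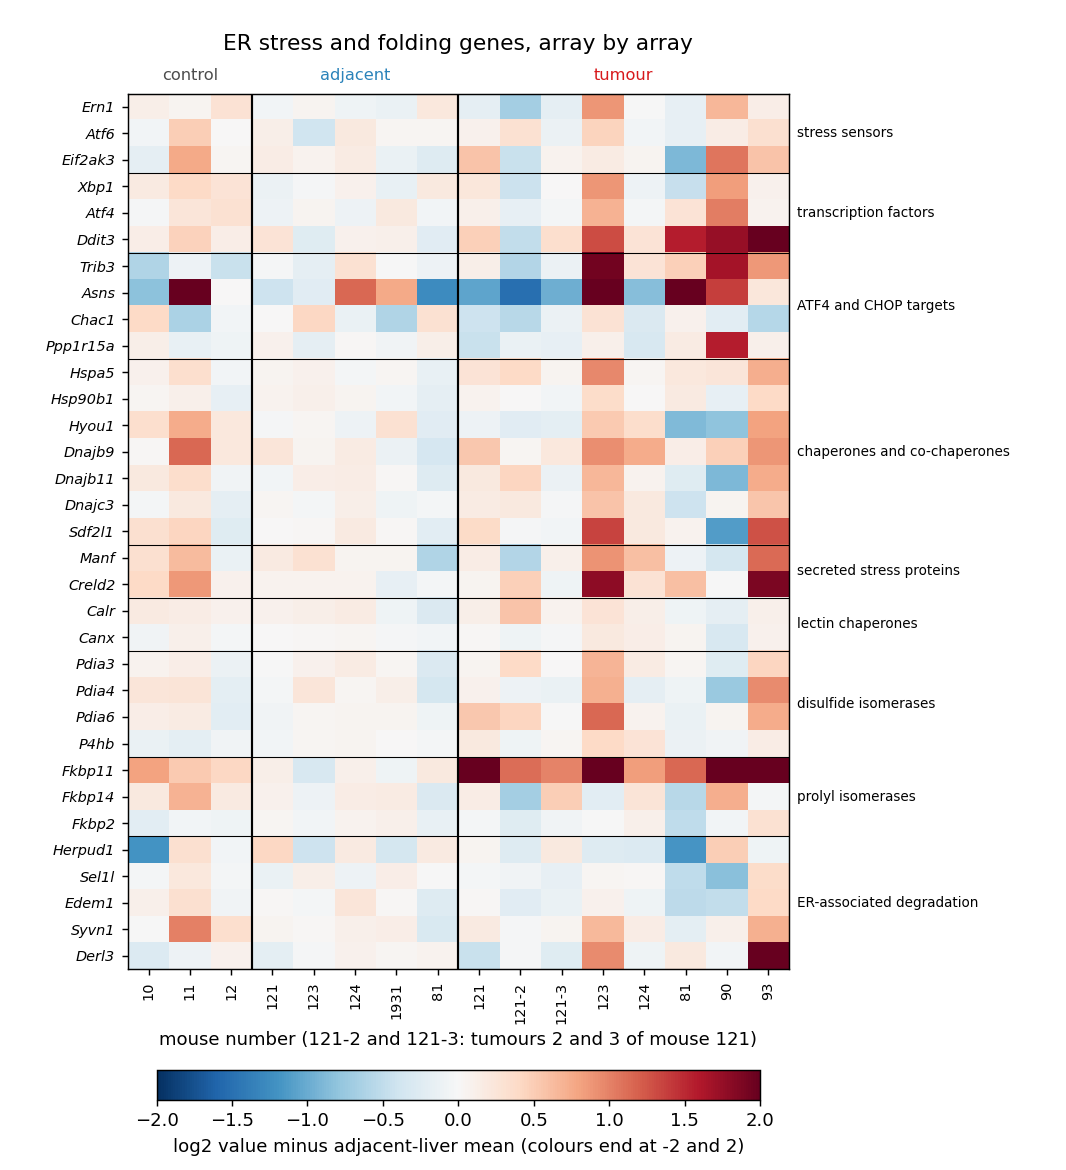
Log2 value of each of the 33 genes (rows, grouped by role) on each of the 16 arrays (columns, by mouse number), minus the mean of the 5 adjacent livers. Tumours 123 and 93 are red across chaperones, secreted stress proteins and disulfide isomerases, tumour 90 is red among sensors, transcription factors and ATF4 and CHOP targets but pale or blue among chaperones, and Fkbp11 is red in every tumour.

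Fkbp11 was the only 1 of the 33 genes that passed the threshold in any comparison. It averaged 6.98 ± 0.21 (SD, n = 3) in control liver, 6.40 ± 0.21 (n = 5) in adjacent liver and 8.36 ± 0.96 (n = 6 mice) in tumours. The single adjacent values were 6.52 in mouse 121, 6.08 in mouse 123, 6.49 in mouse 124, 6.31 in mouse 1931 and 6.60 in mouse 81, and the control values were 7.20, 6.92 and 6.81. Every adjacent liver thus lay below every control. The tumours gave 9.73 in mouse 123, 9.13 in mouse 90, 8.58 in mouse 93, 7.55 in mouse 81 and 7.24 in mouse 124. The 3 tumours of mouse 121 gave 8.82 for the unnumbered one, 7.52 for tumour 2 and 7.40 for tumour 3. Every one of the 8 tumours lay above all 8 non-tumour livers.

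Fkbp11 (Entrez 66120) rose in tumours over adjacent liver by 1.96 (SE 0.36), or 3.89-fold, with an adjusted p of 0.0477 in limma. In the exact two-sided permutation test over mice p was 0.00433, which became 0.321 after Benjamini-Hochberg adjustment over the 99 tests of 33 genes in 3 comparisons. This test and the main limma fit ignored that 4 mice gave both tissues. The call sat at the edge of the threshold: the difference stayed between 1.68 and 2.18 under all 23 alternative settings, but the adjusted p ran from 0.0226 to 0.237 and was above 0.05 in 15 of them. Within the 4 mice that gave both tissues the tumour was higher in all 4, by 1.69 on average and by 0.75 to 3.65, and in a fit of those 4 mice with each mouse as a block the adjusted p was 0.237. Against controls the tumours were 1.38 higher (SE 0.42, adjusted p = 0.189), and adjacent liver was lower than control by 0.58 (difference -0.58, SE 0.43, adjusted p = 0.999). Since this is whole tissue, a change in the share of cells that make Fkbp11 and a change per cell cannot be told apart.

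Plasma cells are a rich source of Fkbp11 and other folding RNAs, so their markers were read on the same arrays. The mean of 11 of the 12 listed plasma and B cell markers ranged from 4.50 to 5.09 in controls, from 4.49 to 5.10 in adjacent liver and from 4.34 to 4.86 in tumours. Jchain, the joining chain of secreted antibody, differed by -0.38 and Mzb1, a plasma cell chaperone, by -0.03 between tumours and adjacent liver. Of the 11 markers 4 differences were positive and 7 negative, up to 0.20 for Sdc1. At an unadjusted p under 0.05, 0 were higher and 2 lower, beside 6.95% and 8.32% of all genes. Pancreatic acinar markers averaged 3.90 to 4.17 in controls, 3.90 to 4.13 in adjacent liver and 4.09 to 4.36 in tumours. Of 8 used, 6 differences between tumours and adjacent liver were positive and 2 negative, from -0.16 to 1.08. Of 9 proliferation markers, all were higher in tumours than in adjacent liver at an unadjusted p under 0.05, against 6.95% of all genes. Their mean ranged from 4.17 to 4.98 in adjacent liver. In tumours it ranged from 4.34 in tumour 90 to 6.88 in the unnumbered tumour of mouse 121. Fkbp11 was 9.13 and 8.82 in those tumours. Cholangiocyte markers averaged 4.09 to 4.47 in adjacent liver and 4.36 to 5.28 in tumours, and stellate cell and fibroblast markers 5.35 to 6.45 and 5.71 to 6.57. The part of these cell types and of proliferation in the Fkbp11 difference was not tested.

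Among the 33 genes as a group, tumour minus adjacent differences were mostly small and positive. The difference was above 0 for 27 and below 0 for 6, with a median of 0.19, beside a median of -0.03 over all genes. Past the adjusted threshold were 1 gene higher and 0 lower, beside 0.142% and 0.0129% of all genes. At an unadjusted p under 0.05, 6 members were higher (Ddit3, Trib3, Hspa5, Dnajb9, Creld2 and Fkbp11) and 0 lower, beside 6.95% and 8.32% of all genes. The members were far brighter than the genes they are set beside, with a median level of 8.24 against 4.48 over all genes. With dim genes filtered out, the same 6 members were higher and 0 lower, beside 1353 higher and 1417 lower of 12864 genes. Groups did not overlap for 1 member higher, Fkbp11, and 0 lower, beside 1.12% and 1.11% of all genes. The unadjusted count depended on how the mice were treated. With each of the 4 paired mice as a block, 2 members were higher (Dnajb9 and Fkbp11) and 0 lower. All genes there gave 1531 higher and 1614 lower of 23279. With 8 separate tumours 4 members were higher and 0 lower, beside 1616 and 2028 genes. With a random mouse block 5 were higher and 0 lower, beside 1700 and 2139 genes.

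These counts were also taken without single tumours. Without tumour 93, 1 member stayed past the adjusted threshold, Fkbp11, beside 1.66% of all genes higher and 1.53% lower, and 5 were higher and 0 lower at an unadjusted p, beside 7.96% and 9.59%. Without tumour 123, no member passed the adjusted threshold, and 5 were higher and 0 lower at an unadjusted p, beside 5.64% and 6.61% of all genes. Creld2 was the member that left the unadjusted count in both cases. Without tumour 90, 9 were higher and 0 lower at an unadjusted p, beside 6.63% and 7.32%, with Sdf2l1, Pdia3 and Pdia6 added. The median difference over the 33 genes was 0.12 without tumour 93 and 0.099 without tumour 123.

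**Figure D2:**
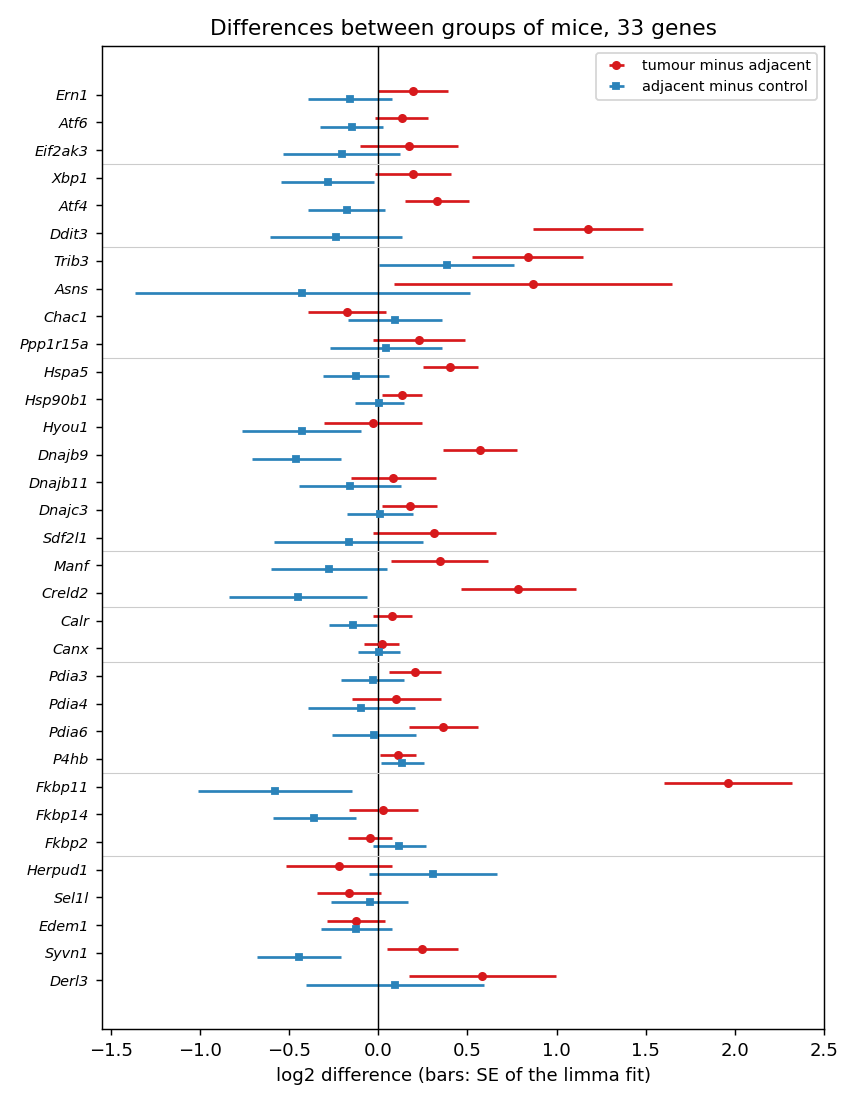
Log2 difference between group means with its SE from the limma fit, for tumour minus adjacent liver (circles) and adjacent liver minus control (squares), for each of the 33 genes in the order of their roles. Fkbp11 at 1.96 and Ddit3 at 1.18 lie farthest to the right among the tumour differences, and most others lie between -0.22 and 0.87.

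The 3 sensors differed little between groups. Ern1, which encodes IRE1, averaged 8.002 ± 0.12 in control, 7.85 ± 0.13 in adjacent liver and 8.04 ± 0.48 in tumours, a tumour minus adjacent difference of 0.19 (SE 0.19, adjusted p = 0.690). Its tumour values ran from 7.17 in tumour 2 of mouse 121 to 8.73 in tumour 123 and 8.52 in tumour 90, which lay above every other array. Atf6 differed by 0.13 (SE 0.15, adjusted p = 0.731) and Eif2ak3, which encodes PERK, by 0.17 (SE 0.27, adjusted p = 0.818). Eif2ak3 had the widest tumour range of the sensors, from 4.90 in tumour 81, the lowest of all arrays, to 6.87 in tumour 90, the highest.

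Of the 3 transcription factors downstream of the sensors, Ddit3 separated the tumours most clearly. Its range over the 6 tumour mice was 1.96, beside 1.35 for Xbp1, 1.06 for Atf4 and 1.97 for the sensor gene Eif2ak3. Ddit3, which encodes CHOP, the factor that ATF4 induces under lasting stress, gave 8.90 in tumour 93, 8.58 in tumour 90, 8.41 in tumour 81 and 8.14 in tumour 123. It gave 7.11 in tumour 124 and 7.31, 6.35 and 7.18 in the 3 tumours of mouse 121, beside 6.60 to 7.11 in adjacent liver and 6.97, 7.29 and 6.97 in controls. Thus 4 of the 6 tumour mice stood above all non-tumour livers by more than the whole spread of those livers, and the mouse means of the other two lay among them; of the single tumours of mouse 121, the unnumbered one lay just above those livers and tumour 2 below them. The difference from adjacent liver was 1.18 (SE 0.31, 2.26-fold, adjusted p = 0.0929 in limma), with an exact permutation p of 0.0195 (0.321 after adjustment over the 99 tests). In the paired mice the tumour was higher by 1.54 in mouse 123 and 1.80 in mouse 81, by 0.18 in mouse 124, and lower in mouse 121 (-0.16).

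Atf4 and Xbp1 were highest in the same pair of tumours. Atf4 gave 10.91 in tumour 90 and 10.59 in tumour 123, beside 9.79 to 10.09 in adjacent liver, and differed by 0.33 between the groups (SE 0.18, adjusted p = 0.406). Xbp1 gave 9.56 in tumour 123 and 9.50 in tumour 90, beside 8.51 to 8.87 in adjacent liver and 8.85 to 9.08 in controls, while tumour 81 at 8.21 and tumour 2 of mouse 121 at 8.24 lay below all non-tumour livers. The mean difference for Xbp1 was 0.19 (SE 0.21, adjusted p = 0.724).

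Of the 4 targets of ATF4 and CHOP, Trib3 and Asns were high in some tumours and Chac1 in none. Trib3, a pseudokinase that restrains ATF4 and CHOP activity, gave 6.93 in tumour 123, 6.66 in tumour 90, 5.87 in tumour 93 and 5.48 in tumour 81, all above the adjacent range of 4.82 to 5.31. Its other tumour values ran from 4.41 to 5.28. The difference from adjacent liver was 0.84 (SE 0.31, adjusted p = 0.209) and that from control 1.22 (SE 0.36, adjusted p = 0.184).

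Asns, the enzyme that makes asparagine and a standard reporter of ATF4, had the widest spread of the set. Tumours 123 and 81 gave 9.38 and 8.63, tumours 90 and 93 gave 7.57 and 6.41, and tumour 124 and the 3 of mouse 121 gave 4.67 to 5.33. The non-tumour livers were spread as well, from 4.93 to 7.33 in adjacent liver and with 5.36, 8.29 and 6.19 in controls 10, 11 and 12, so the groups overlapped, although tumours 123, 81 and 90 lay above every adjacent liver and tumours 123 and 81 above every control as well. The difference was 0.87 (SE 0.78, adjusted p = 0.653). In the paired mice Asns was 3.42 and 3.71 higher in the tumours of mice 123 and 81 and lower in those of mice 121 and 124, by -0.78 and -2.004.

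Ppp1r15a, which encodes GADD34, the phosphatase subunit that restores translation, stood at 7.73 in tumour 90 alone, while the other 15 arrays lay between 5.71 and 6.34; its group difference was 0.23 (SE 0.26, adjusted p = 0.734). Chac1, an enzyme that breaks down glutathione, differed by -0.18 (SE 0.22, adjusted p = 0.753), was lower in the tumour of all 4 paired mice, and gave 5.02 to 6.06 on every array.

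Hspa5, which encodes BiP, the main ER chaperone and the classic readout of the response, was higher in tumours by 0.40 (SE 0.15, 1.32-fold). The adjusted p was 0.220 in limma, and the exact permutation p was 0.0260 (0.354 after adjustment over the 99 tests). Adjacent livers gave 10.51, 10.54, 10.41, 10.49 and 10.30 and controls 10.54, 10.78 and 10.40. Tumours gave 11.41 in mouse 123, 11.18 in mouse 93, 10.69 in mouse 90, 10.65 in mouse 81, 10.48 in mouse 124, and 10.73, 10.84 and 10.50 in mouse 121. Only tumours 123, 93 and tumour 2 of mouse 121 lay above every non-tumour liver. In the paired mice the tumour was higher in 4 of 4, by 0.073 to 0.87.

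Dnajb9, a co-chaperone that XBP1 induces and that holds IRE1 in check, differed by 0.57 (SE 0.21, adjusted p = 0.196, exact permutation p = 0.0173). Its tumour values ran from 8.58 to 9.47 and its adjacent values from 8.20 to 8.79, and it was higher in the tumour of all 4 paired mice. Control 11, however, gave 9.69, above every tumour, and the difference from control was 0.11 (SE 0.24, adjusted p = 0.895).

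Among the other chaperones, tumours 123 and 93 were the highest and tumour 90 was often low. Sdf2l1, a partner of BiP, gave 8.67 in tumour 123 and 8.59 in tumour 93, 6.19 in tumour 90 and 7.26 to 7.69 in the others, beside 7.10 to 7.49 in adjacent liver. Hyou1, a nucleotide exchange factor of BiP, gave 8.74 in tumour 93 and 8.46 in tumour 123 and was lowest of all arrays in tumours 81 (7.05) and 90 (7.13). Dnajb11, a co-chaperone of BiP, gave 8.91 and 8.83 in tumours 93 and 123 and 7.28 in tumour 90. Tumours 123 and 93 were thus the highest tumours for these 3 genes, and tumour 90 was the lowest or next to it. The group differences were 0.31 for Sdf2l1 (SE 0.35), -0.03 for Hyou1 (SE 0.28) and 0.08 for Dnajb11 (SE 0.24), with adjusted p of 0.724, 0.975 and 0.910. Hsp90b1, the ER form of HSP90, differed by 0.13 (SE 0.11, adjusted p = 0.631) and Dnajc3, a co-chaperone that also inhibits PERK, by 0.18 (SE 0.15, adjusted p = 0.639); both were highest in tumours 93 and 123.

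**Figure D3:**
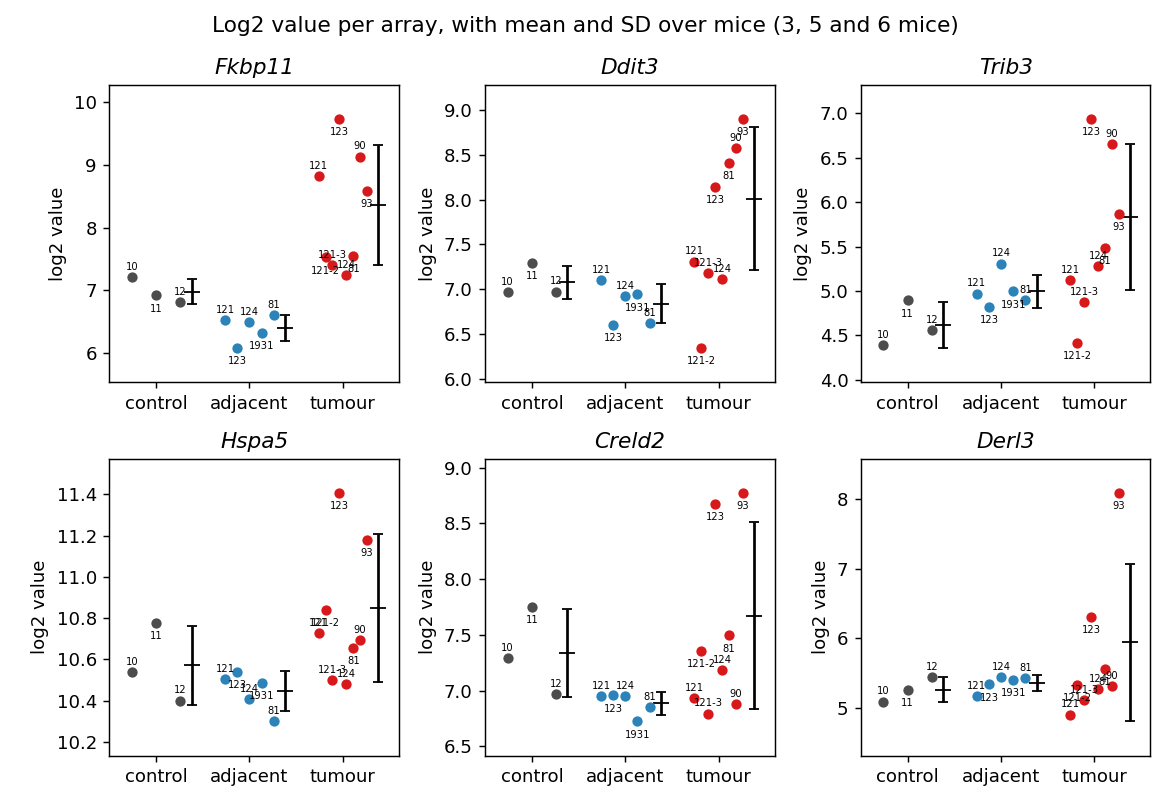
Log2 values of 6 genes on every array, labelled by mouse (121-2 and 121-3 are tumours 2 and 3 of mouse 121), with the mean and SD over mice. Fkbp11 separates all tumours from the other livers, Ddit3 and Trib3 are high in tumours 123, 90, 93 and 81, Hspa5 and Creld2 in tumours 123 and 93, and Derl3 in tumour 93.

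The secreted stress proteins showed the same pair of tumours. Creld2, a disulfide isomerase-like protein that stressed cells secrete, gave 8.77 in tumour 93 and 8.68 in tumour 123, and 6.79 to 7.50 in the other 6 tumours. Adjacent livers gave 6.72 to 6.96, a far narrower range (SD 0.10 against 0.84 in tumours), and controls gave 7.29, 7.75 and 6.97. The difference from adjacent liver was 0.79 (SE 0.32, adjusted p = 0.255). Manf, a secreted factor released under ER stress, gave 10.003 and 9.76 in tumours 93 and 123 and 8.27 to 9.46 in the others, a difference of 0.34 (SE 0.27, adjusted p = 0.598).

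Lectin chaperones and disulfide isomerases moved less. Calr and Canx, the calreticulin and calnexin that hold glycoproteins during folding, differed by 0.08 (SE 0.11, adjusted p = 0.790) and 0.02 (SE 0.10, adjusted p = 0.948). Pdia6, an oxidoreductase that attenuates IRE1, gave 10.45 in tumour 123 and 10.04 in tumour 93, 9.84 and 9.74 in the unnumbered tumour and tumour 2 of mouse 121, and 9.18 to 9.37 in the others, close to the adjacent range of 9.22 to 9.36. Its difference was 0.37 (SE 0.19, adjusted p = 0.395). Pdia4 ran from 9.05 in tumour 90 to 10.74 in tumour 93, a wider range than in the other livers (9.43 to 10.04), with a group difference of 0.10 (SE 0.25, adjusted p = 0.891). Pdia3, which works with the lectin chaperones, differed by 0.21 (SE 0.15) and P4hb, the prototype disulfide isomerase, by 0.11 (SE 0.10), with adjusted p of 0.550 and 0.649.

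The other prolyl isomerases differed little between the groups. Fkbp14, a collagen-folding isomerase, differed by 0.03 (SE 0.19, adjusted p = 0.967) and Fkbp2 by -0.05 (SE 0.12, adjusted p = 0.902). In tumour 123, where Fkbp11 was highest at 9.73, Fkbp14 gave 5.29 and Fkbp2 10.69, both inside the adjacent ranges of 5.20 to 5.66 and 10.55 to 10.81. Whether the 3 genes differ in their change was not tested.

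Of the 5 genes of ER-associated degradation, 2 had a positive and 3 a negative difference. Derl3, a channel component found in secretory cells under stress, stood at 8.09 in tumour 93 and 6.30 in tumour 123, while the other 14 arrays lay between 4.90 and 5.56. Its difference of 0.58 (SE 0.41, adjusted p = 0.547) rested on those tumours and ran from 0.15 to 0.75 over the alternatives. Syvn1, the ubiquitin ligase HRD1, gave 8.63 and 8.56 in the same tumours but 8.92 in control 11, and differed by 0.25 (SE 0.20, adjusted p = 0.602). Sel1l, its partner, was lowest of all arrays in tumours 90 (7.40) and 81 (7.73), as was Edem1, which extracts misfolded glycoproteins, at 7.76 and 7.72. Their differences were -0.17 (SE 0.18) and -0.12 (SE 0.16), with adjusted p of 0.718 and 0.774. Herpud1, a scaffold of the degradation complex, differed by -0.22 (SE 0.30, adjusted p = 0.778) and ran from 8.52 in tumour 81 to 10.19 in tumour 90.

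Tumour by tumour, the members fell into different patterns. In tumour 123, 25 of the 33 genes lay above the range of the 5 adjacent livers and 0 below, beside 21.4% and 26.4% of all genes. In tumour 93, 24 lay above and 0 below, beside 16.6% and 17.3%. Tumour 93 thus had more members above the range than 6 of the other tumours, while its share of all genes above the range was the lowest but one. The median member stood 0.66 above the adjacent mean in tumour 123 and 0.43 above it in tumour 93.

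Tumours 90 and 81 had members on both sides. In tumour 90, 13 lay above and 8 below, beside 23.3% and 26.4% of all genes. The median of the 4 ATF4 and CHOP targets in tumour 90 was 1.47 above the adjacent mean, that of the transcription factors 1.02 and that of the sensors 0.67, whereas that of the 7 chaperones was -0.17 and that of the disulfide isomerases -0.16. In tumour 81, 11 lay above and 12 below, beside 23.1% and 25.4%. Its ATF4 and CHOP targets had a median of 0.33 and its degradation genes of -0.51. Tumour 123 was high on both sides, with medians of 1.11 for the ATF4 and CHOP targets and 0.66 for the chaperones. Tumour 93 had medians of 1.51 for the secreted stress proteins, 0.74 for the chaperones and 0.59 for the disulfide isomerases. Its ATF4 and CHOP targets had a median of 0.16, although its Ddit3 value of 8.90 was the highest of all arrays.

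In tumour 124 and the tumours of mouse 121 the median member lay near the adjacent mean. In tumour 124, 15 members lay above and 1 below, beside 17.1% and 21.7% of all genes, and the median member was 0.07 above the adjacent mean, as near to it as in tumour 90 (0.05). The unnumbered tumour of mouse 121 had 12 above and 3 below, beside 19.4% and 25.2%. Its tumour 2 had 9 above and 11 below, beside 19.1% and 25.3%, and its tumour 3 had 3 above and 3 below, beside 15.7% and 20.5%. The 3 tumours of this mouse differed among themselves by 1.42 for Fkbp11, 0.96 for Ddit3 and 0.34 for Hspa5. The ranges over the 6 tumour mice were 2.49, 1.96 and 0.93. A range over 3 values and one over 6 are not alike, so spread within and between mice cannot be compared from them.

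**Figure D4:**
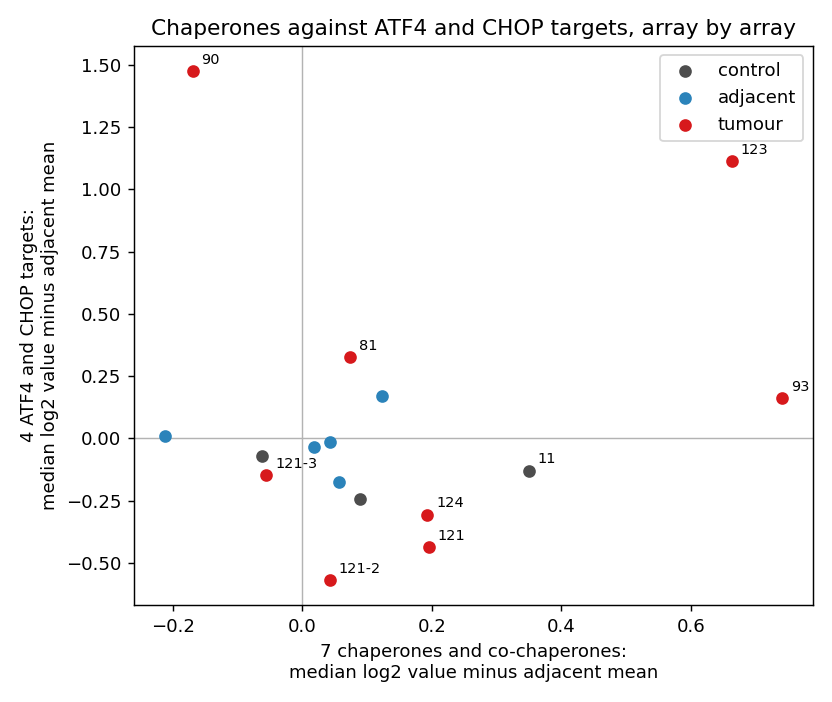
Each point is 1 array. The horizontal axis is the median, over 7 chaperones and co-chaperones, of the log2 value minus the adjacent mean, and the vertical axis is the same over the 4 ATF4 and CHOP targets; tumour 90 lies at -0.17 and 1.47, tumour 93 at 0.74 and 0.16, tumour 123 at 0.66 and 1.11, and the other tumours lie nearer to the non-tumour livers.

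Members grouped by their promoters gave a similar division. The 11 genes with an ER stress element of either kind, whose sites are printed above, had a median of 0.72 above the adjacent mean in tumour 93, 0.65 in tumour 123, -0.01 in tumour 90 and -0.09 in tumour 81. The 19 genes whose promoters held none had medians of 0.37, 0.70, 0.67 and 0.04 in those tumours. Over the group means the median tumour minus adjacent difference was 0.18 with the element and 0.19 without it. Tumour 90 was thus the one in which genes with and without the element lay farthest apart. These are descriptions without a test, and the split overlaps with the roles: no sensor, transcription factor or ATF4 and CHOP target with a promoter held the element.

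Compared with control liver, tumours showed no member past the adjusted threshold, beside 0.0129% of all genes higher and 0.0129% lower in limma. At an unadjusted p under 0.05, 3 members were higher (Ddit3, Trib3 and Fkbp11) and 0 lower, beside 5.65% and 6.88% of all genes. Fkbp11 was also the only member whose groups did not overlap, with 0 lower, beside 2.11% and 3.08% of all genes. Ddit3 was 0.94 higher (SE 0.36, adjusted p = 0.299) and Hspa5 0.28 higher (SE 0.18, adjusted p = 0.555). The median member difference was 0.09, beside -0.04 over all genes, with 22 differences above 0 and 11 below. This comparison and that with adjacent liver share the tumours.

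Control 11 stood high for much of the set, with 22 members above the adjacent range and 2 below it, beside 18.2% and 17.5% of all genes. It gave the highest value of all arrays for Dnajb9 (9.69), Syvn1 (8.92) and Atf6 (8.64), and 8.29 for Asns. With only 3 controls, 1 such liver weighs heavily on every comparison with controls.

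Adjacent liver of Axin1-deleted mice, compared with control liver, addressed whether the tissue around the tumours had shifted. No member passed the adjusted threshold in limma and none of all genes did (0% higher and 0% lower). No member had an unadjusted p under 0.05 either, beside 1.61% of all genes higher and 2.94% lower. With only these groups in the fit, 1 was higher (Trib3) and 4 lower (Xbp1, Hyou1, Creld2 and Fkbp11), beside 3.02% and 2.62% of all genes. After quantile normalization 0 were higher and 2 lower (Dnajb9 and Syvn1), beside 2.1% and 2.5%, as were the same genes without control 10, beside 1.46% and 3.46%. Groups did not overlap for 1 member higher, P4hb, and for 3 lower, Creld2, Fkbp11 and Fkbp14, beside 2.18% and 2.04% of all genes. P4hb gave 10.67 to 10.79 in adjacent liver and 10.54 to 10.65 in controls (difference 0.13, SE 0.12, adjusted p = 0.999 in limma). The exact permutation p was 0.0179 for P4hb, Creld2 and Fkbp11, the smallest that 3 against 5 livers allow. After Benjamini-Hochberg adjustment over the 99 tests it was 0.321 for each. Creld2 was lower by 0.45 (difference -0.45, SE 0.39) and Fkbp14 by 0.36 (difference -0.36, SE 0.23), both with an adjusted p of 0.999. The median member difference was -0.14, beside -0.01 over all genes, and 23 of the 33 differences were below 0; without control 11 it was -0.0198.

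Other genes of the pathway were read from 9 lists of 158 genes, of which 150 were used here. Their median level was 7.70, beside 4.48 over all genes. None passed the adjusted threshold between tumours and adjacent liver. At an unadjusted p under 0.05, 34 were higher and 4 lower, beside 6.95% and 8.32% of all genes, and the list counts that follow are to be read against the same shares. The other ATF4 and CHOP targets contributed most: 15 of 22 were higher and 0 lower, with a median difference of 0.63. Nupr1, a small stress-induced chromatin protein, gave 4.66 to 5.94 in adjacent liver and 5.89 to 9.47 in tumours, a difference of 2.42 (SE 0.56, adjusted p = 0.0754). Psph, the last enzyme of serine synthesis, gave 5.76 to 5.96 in adjacent liver and 5.97 to 7.53 in tumours, a difference of 0.82 (SE 0.20, adjusted p = 0.0825). This list had its highest medians in tumours 90 (1.01), 81 (0.86) and 123 (0.84) and lower ones in tumour 93 (0.28) and in tumour 2 of mouse 121 (0.06). Against controls 13 of the 22 were higher and 0 lower at an unadjusted p, beside 5.65% and 6.88% of all genes, with a median of 0.61.

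Aminoacyl-tRNA synthetases, several of which ATF4 induces, followed with 7 of 16 higher and 0 lower and a median of 0.29. Vars, for valine, differed by 0.71 (SE 0.17, adjusted p = 0.0825) and Gars, for glycine, by 0.55 (SE 0.14, adjusted p = 0.0882). Among other prolyl isomerases and ER calcium-binding proteins, 4 of 15 were higher. Dnajc10, an ER reductase that aids degradation, was counted in this list rather than with the disulfide exchange enzymes. It gave 7.01 to 7.43 in adjacent liver and 7.94 to 9.92 in tumours with no overlap, a difference of 1.50 (SE 0.28, adjusted p = 0.0536). Ppic, a cyclophilin of the ER, differed by 1.04 (SE 0.23, adjusted p = 0.0718).

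The machinery that feeds and empties the ER held fewer such genes, and counts of 1 in a list are near the 6.95% higher and 8.32% lower of all genes. In the translocon and signal peptidase list 4 of 22 were higher, led by Srp14 (0.42, adjusted p = 0.145) and Srp19 (0.36, adjusted p = 0.212), both parts of the signal recognition particle. Of the oligosaccharyltransferase and glycan trimming genes 1 of 16 was higher, Krtcap2 (0.33, adjusted p = 0.256), with Ostc next (0.46, adjusted p = 0.348). Of the other disulfide exchange enzymes 1 of 13 was higher, Ero1a (1.11, SE 0.46, adjusted p = 0.259), the oxidase that recharges disulfide isomerases, and the next was Erp29 (0.24, adjusted p = 0.374). Of the other degradation genes 1 of 19 was lower, Rnf5 (-0.44, adjusted p = 0.273), with Derl2 next (-0.24, adjusted p = 0.455). Of the COPII coat, which buds vesicles from the ER, 2 of 12 were lower, Sec24a (-0.29, adjusted p = 0.221) and Sar1b (-0.41, adjusted p = 0.311). Of the other sensors and ER-bound factors 2 of 15 were higher, Creb3l1 (0.49, adjusted p = 0.148) and Creb3l2 (0.73, adjusted p = 0.183), and 1 was lower. The lists with the larger shares of low p-values were thus the ATF4 and CHOP targets and the synthetases, while no other list had more than 4 such genes.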

How the data were processed

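Total RNA of 16 livers or liver tumours was extracted with Trizol, amplified with the Ovation PicoSL WTA V2 system and biotin-labelled, and hybridised to 1 one-colour array each, per the labels' protocols. The deposited values are log2 expression values. Per the submitters' processing notes, which give no version, RMA and Partek were used. The sources used here do not name the chip model or genome build. RMA equalises arrays, which removes global shifts and compresses changes of dim genes. Array medians lay between 4.37 and 4.50. Precision is limited by how many arrays there are.

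Of 24479 probe sets, 23281 had 1 symbol, which gave 23279 genes (the brighter probe set where there were 2). The tumours of mouse 121 were averaged. The 3 groups were fitted in limma 3.58.1 (R 4.3.3) with an intensity trend, with Benjamini-Hochberg adjusted p-values (all genes, threshold 0.05). The fit was tested on simulated data. Exact permutation tests (two-sided, over mice, in Python 3.11.15 with numpy 2.4.6) were adjusted over 99 tests. With 462, 84 and 56 splits the smallest p values possible are 0.00216, 0.0119 and 0.0179. In 4 animals, known from the titles, both tissues were sampled. The main limma fit and the exact permutation tests ignored this pairing. Deviations from group means of these pairs correlated at 0.0789 on average. Adjacent liver 1931 and tumour 93 were counted as 2 mice, as their numbers differ. No batch is given in the labels.

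The members and lists were chosen with earlier results of these data known. Named genes are Fkbp11, the 3 sensors, Xbp1, Atf4, Ddit3, Hspa5, Hsp90b1, members past the threshold, the 8 members with the largest tumour minus adjacent difference, and of each related list the 2 with the smallest p; the remaining members are described by role. Protein sequences were not used here. Alternatives were other normalizations, a filter keeping 12864 genes, other treatments of mouse 121 and of the pairing, no intensity trend, only the groups compared, and each mouse left out of its group in turn (1 tissue at a time where a mouse gave both).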

Additional observations from a re-analysis of the deposited data

Results flagged for a closer look

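Among 28 groups checked (14 named genes in adjacent liver and in tumours), 1 value lay far from the rest of its group by Dixon's criterion, which chance flags in about 1 of 20 groups. Atf6 in adjacent liver 123 was 7.75, and the nearest of the other adjacent livers was 8.19. The tumour of the same mouse gave 8.60.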

How the results depend on the processing

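Between tumours and adjacent liver, 36 genes passed the threshold; the count was 23 after quantile normalization, 16 after median centring, 181 with dim genes filtered out, 8 with only the groups compared, 87 with 8 separate tumours, 157 with the unnumbered tumour of mouse 121 only, 206 with a random mouse block and 0 with a fixed block in the paired mice, and it ran from 5 (without adjacent liver 124, adjacent liver 123 or tumour 123) to 743 (without tumour 93) as single mice were left out of a group. Of the members, 1 passed; 0 did after quantile normalization, median centring, with no intensity trend, with only the groups compared and with the fixed paired block, and 0 or 1 as single mice were left out of a group. Between tumours and controls 6 genes passed, and 18 did after median centring, 35 with the filter, 3 with no trend, 31 with 8 tumours, 33 with the unnumbered tumour, 24 with the random block and 0 to 242 as single mice were left out of a group (242 without tumour 93). Between adjacent liver and controls the count was 0 to 1. The median member difference there was -0.14 and ran from -0.21 to -0.0198 (without control 11) as single mice were left out of a group. The cause of these shifts was not tested. The median member difference between tumours and adjacent liver stayed above 0 in every setting run, from 0.099 to 0.27; that between tumours and controls ran from -0.009 to 0.22. Fkbp11, the only named gene past the threshold, kept its sign in every setting. Some other named genes did not. Eif2ak3 ran from -0.18 to 0.39 between tumours and adjacent liver, and Ern1 from -0.10 to 0.15 between tumours and controls. With the random block Fkbp11 differed by 1.84 between tumours and adjacent liver (adjusted p = 0.0363 in limma). Limits are the 3 controls, the 4 paired mice and single tumours that carry much of the spread.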
